A study of Mus musculus with 3 samples.

Results

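The response of mouse embryonic stem (ES) cells to 6 h of auxin was followed within the 8 plates of the second replicate of a Smart-SCRB experiment, 4 control plates against 4 auxin plates. Members were the wells of this replicate with more than 2600 detected genes, and they numbered 661 of 768 wells (371 control and 290 auxin cells) out of 1335 such cells among 1536 wells in all 3 replicates. Smart-SCRB sorts single cells into 96-well plates, tags the 3′ ends of their messenger RNA with a well barcode and counts distinct molecules by unique molecular identifier (UMI). The cells were RAD21-AID derivatives of the JM8.N4 line from the C57BL/6N strain, grown in both conditions without feeders in 15% serum with leukemia inhibitory factor (LIF) and the 2 inhibitors of 2i medium, PD0325901 at 1 μM and CHIR99021 at 3 μM. Auxin plates held cells given 500 μM auxin for 6 h and control plates held untreated cells of the same line, so that auxin itself and the loss of RAD21 cannot be told apart. All 8 plates carried the same 96 well barcodes and 1 run number. The deposited names number the control plates 1, 2, 3 and 4 and the auxin plates 1, 2, 4 and 5. Nothing says that plates of a condition came from separate cultures, so every p-value here measures the spread between plates, which may be technical.

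RAD21 is a subunit of cohesin, the ring that extrudes chromatin loops and holds sister chromatids together. The auxin-inducible degron (AID) tag sends the RAD21 protein to the proteasome once auxin is present, and leaves its messenger RNA in place. PD0325901 blocks MEK in the FGF pathway and CHIR99021 blocks GSK3, which mimics Wnt signalling. Together with LIF they are used to hold ES cells in the naive state. That state rests on a network of transcription factors that includes KLF2, KLF4, KLF5, ESRRB, NANOG and PRDM14. Whether the cells of this replicate were in that state was not tested, and levels of its genes are given below. Other pathways that ES cells use at a measurable level are the p53 response, which induces Mdm2 and Cdkn1a, and the integrated stress response, in which the factor ATF4 turns on genes of amino acid transport and synthesis.

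Several measures of the wells moved with the condition. Of the wells on a plate, 91.7% to 99.0% passed the filter in control and 74.0% to 77.1% in auxin, and the 94 auxin wells that failed had a median of 601.5 gene UMIs but 6131 UMIs of ERCC spike-in RNA. The 13 control wells that failed had medians of 816 gene UMIs and 3314 ERCC UMIs. Median UMIs per cell lay between 138417 and 150580.5 on control plates and between 172889.5 and 209426 on auxin plates, and cells above 250000 UMIs made up 0% to 3.19% and 9.46% to 32.4% of a plate. The share of wells kept, the median UMIs per cell and the share of cells above 250000 UMIs each separated the 4 control from the 4 auxin plates. For each the exact two-sided permutation test gave p = 0.0286, the smallest that 4 against 4 plates allow. Row D was shallow on all 8 plates, with plate medians of 17788.5 to 42473.5 gene UMIs in its 74 cells and 144894 to 217951 in the other 587 cells, and ERCC UMIs were low there as well, at 496 to 851.5 against 4328 to 6449.5. The same row was shallow in replicate 3 (plate medians of 11349.5 to 15468 UMIs against 72348.5 to 86262) and not in replicate 1 (107013 to 127614.5 against 93875 to 118730). Row D held 2.90% to 4.13% of the UMIs of a control plate and 1.43% to 1.77% of an auxin plate, and log2 fold changes of genes with most of their control UMIs in it are given with and without it. Of the 12 ES cell markers, 8 reached 10 CPM (counts of a gene scaled to the same total of gene UMIs on each plate) on some plate and Sox2 had 0 UMIs on every plate. The annotation places Sox2 within Sox2ot on the same strand, so that this 0 need not mean that the transcript was absent. The list summed to 4470 to 5167 CPM on control plates and 3069 to 3461 CPM on auxin plates. This sum moved mainly through Dppa5a (means of 3560 and 2121 CPM). Markers of other cell types were low. Endoderm markers summed to 13.4 to 15.9 CPM on control and 11.9 to 15.8 CPM on auxin plates, trophectoderm markers to 8.64 to 13.0 and 7.15 to 10.4 CPM, mesoderm markers to 1.38 to 2.69 and 0.416 to 2.95 CPM, markers of 2-cell-like cells to 0 to 0.978 and 0 to 0.221 CPM, fibroblast markers to 13.1 to 17.04 and 18.7 to 34.9 CPM and neural markers to 39.0 to 48.4 and 54.4 to 73.2 CPM. The last 2 lists moved mainly through Dcn (means of 10.6 and 22.6 CPM) and Nes (24.8 and 42.8 CPM), and their part in any result was not tested.

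The phase calls of single cells shifted between conditions. Cells called G2/M by cyclone, a classifier of phase from expression, made up 60.0%, 63.6%, 64.9% and 63.8% of control plates 1, 2, 3 and 4, and 35.6%, 45.8%, 43.2% and 46.5% of auxin plates 1, 2, 4 and 5. G1 cells made up 7.37%, 9.09%, 6.38% and 5.32% of the control plates and 27.4%, 16.7%, 18.9% and 25.4% of the auxin plates. Neither share overlapped between conditions. The mean G2/M share fell from 63.1% ± 2.13 to 42.8% ± 4.98 (SD, n = 4 plates) and the G1 share rose from 7.04% ± 1.60 to 22.1% ± 5.11 (exact two-sided permutation test, p = 0.0286 for each and 0.0429 after Benjamini-Hochberg adjustment over 3 phases). The S share was 29.9% ± 2.36 and 35.1% ± 4.65 (exact permutation, p = 0.114). With cells thinned to 20000 UMIs the G2/M difference was -15.8 percentage points in place of -20.3. Since the G2/M share separates the plates exactly as auxin does, it and the condition cannot be told apart by a covariate. In replicates 1 and 3 the G2/M share was higher on the auxin plates. In replicate 1 G2/M cells made up 37.9% and 37.0% of the control plates and 47.8% and 55.7% of the auxin plates, and in replicate 3 49.4% of the control plate and 59.5% of the auxin plate, with no test there. A fit in replicate 2 with the G2/M share as a covariate called 0 genes by edgeR, while 1132 had a raw p below 0.05.

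**Figure D1:**
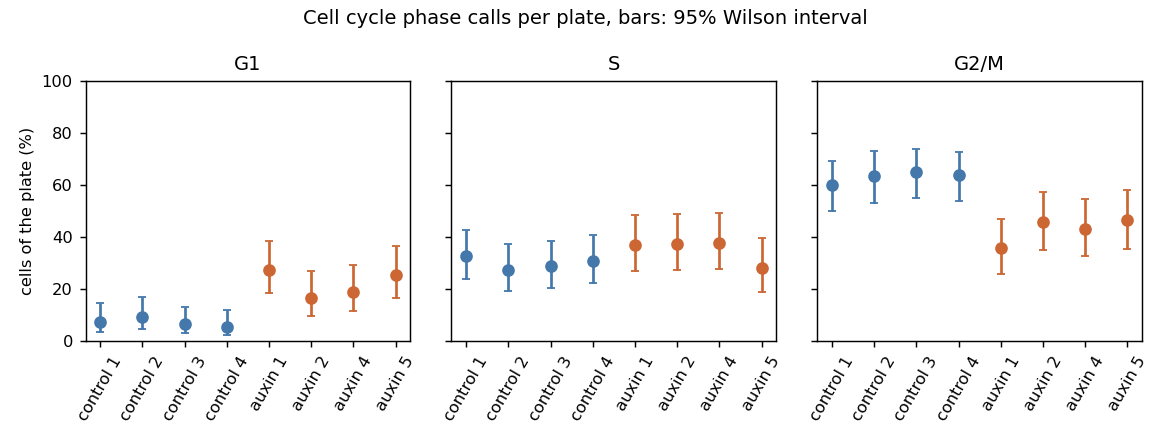
Share of cells called G1, S or G2/M on each of the 8 plates (vertical axis, percent of the cells of the plate), with control plates in blue and auxin plates in orange. Bars are 95% Wilson intervals, which cover counting error only. The 4 auxin plates lie between 35.6% and 46.5% in G2/M, below the 4 control plates at 60.0% to 64.9%.

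To find genes whose level differed between the plates, counts were summed per plate and tested by the quasi-likelihood test of edgeR, and p-values of genes were adjusted after Benjamini and Hochberg over all genes tested. In such sums a change in the mix of cells and a change within each cell cannot be told apart. Of 16349 genes tested, 888 passed an adjusted p of 0.05 (5.43%), 456 higher with auxin (2.79%) and 432 lower (2.64%), and all auxin plates lay above all control plates in 8.01% and below them in 6.01% of genes. The median log2 fold change over all genes was 0.0065. Scaling by library size alone, without TMM, moved that median by little, to 0.041, but turned the split into 604 higher and 372 lower (5.97% in all). Single plates mattered for the count, which was 469 without auxin plate 1 (2.78%), 576 without auxin plate 2 (3.43%), 575 without control plate 1 (3.41%) and 481 without control plate 4 (2.85%). Of the 888 genes, 761 were also called without row D, where 410 were higher (2.54%) and 386 lower (2.39%), together 4.93%. Within the G2/M cells 79 were higher (0.547%) and 108 lower (0.747%) of 14454 genes, and within the S cells 126 were higher (0.986%) and 149 lower (1.17%) of 12785. Of the 187 genes called in G2/M cells, 174 were among the 888. Calls were more frequent at higher levels. Above 100 CPM 13.1% of 2236 genes passed, with a median standard error of 0.0833, and at 1 to 10 CPM 1.62% of 6893 genes passed, with a median standard error of 0.439. The share over all genes printed beside a list below takes no account of the level of its members. Protein-coding genes passed in 5.93% of 13662 cases and long intergenic noncoding RNAs in 3.32% of 784. Rad21 (ENSMUSG00000022314), whose protein is the target of the degron, had 34.7, 28.1, 31.4 and 30.5 CPM on control plates 1, 2, 3 and 4 and 41.5, 31.7, 26.4 and 36.4 CPM on auxin plates 1, 2, 4 and 5. These ranges overlapped (log2 fold change 0.09, standard error 0.150, adjusted p = 0.788), and the transcript is no check of the protein.

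Part of the naive network was lower on the auxin plates. Its control levels differed between replicates. Nanog had a mean of 58.6 CPM on the control plates here and 496 and 525 CPM in control sums of replicates 1 and 3. In the same order Esrrb had 17.7, 66.8 and 125 CPM, Prdm14 5.35, 109 and 116 CPM and Nr5a2 17.9, 11.5 and 65.5 CPM. Otx2, of the formative state, had 185, 13.7 and 4.29 CPM and Pou3f1 86.4, 0.943 and 4.78 CPM. The part of these levels in the changes below was not tested. Of 19 naive pluripotency genes tested, 8 fell and 0 rose, against 2.64% of all genes that fell, and their median log2 fold change was -0.86. Klf5 (ENSMUSG00000005148, chromosome 14 from 99298691 to 99315036 of mm10, plus strand), a zinc finger factor of this network, had 95.5, 56.6, 43.8 and 59.6 CPM on control plates 1, 2, 3 and 4 and 15.6, 39.0, 17.4 and 21.0 CPM on auxin plates 1, 2, 4 and 5. Control plate 1 was the highest of its group and auxin plate 2 the highest of the other, and the groups did not overlap. Klf5 fell by 1.50 on the log2 scale (standard error 0.287, adjusted p = 0.0106). In G2/M cells alone its value was -1.33 (adjusted p = 0.275) and in S cells -1.83 (adjusted p = 0.0167). Esrrb, an orphan nuclear receptor of the same network, had 20.8, 13.0, 20.5 and 16.7 CPM on the control plates and 7.40, 5.08, 8.16 and 6.56 CPM on the auxin plates, with no overlap (log2 fold change -1.41, standard error 0.217, adjusted p = 0.00308). Klf2 had 291, 161, 140 and 166 CPM and 102, 61.7, 112 and 107 CPM in the same order. Control plate 1 stood at the top of its group for Klf2 as it did for Klf5 (log2 fold change -1.02, standard error 0.227, adjusted p = 0.0216). Nanog, the homeobox factor, fell by 0.63 (adjusted p = 0.0215), from 61.6, 57.9, 57.2 and 57.8 CPM to 40.2, 47.6, 28.3 and 39.2 CPM. Prdm14, which represses Fgfr and Dnmt3 genes, fell from 9.43, 4.06, 3.83 and 4.08 to 2.00, 1.99, 1.63 and 2.36 CPM (log2 fold change -1.46, standard error 0.379, adjusted p = 0.0423). Its 5 highest cells held 73.0% to 94.0% of its UMIs on a control plate and 93.8% to 100% on an auxin plate, and its plate shares of detecting cells overlapped. Nr5a2, a nuclear receptor, also fell (log2 fold change -1.27, standard error 0.337, adjusted p = 0.0460), and its plates overlapped, with auxin plate 2 at 11.8 CPM against 11.6 CPM on control plate 2. The calls of Prdm14 and Nr5a2 each held in 1 of the 8 fits that left out a plate. Klf4, the relative of Klf2 and Klf5, was near the floor in this replicate, at a mean of 2.75 and 1.16 CPM, and did not pass (log2 fold change -1.29, adjusted p = 0.390). Zfp42 and Sall4 did not pass either, with log2 fold changes of -0.23 and -0.19. In the whole KLF family, 3 of 16 genes fell and 0 rose, namely Klf5, Klf2 and Klf13, and the call of Klf13 held in 2 of 8 fits that left out a plate. That of Nanog held in 5, and its log2 fold change was -0.34 in G2/M cells alone (adjusted p = 0.544). In those cells 1 of 17 naive genes and 0 of 14 KLF genes fell by edgeR (3 of the KLF genes had a raw p below 0.05), and in S cells 6 of 18 and 4 of 15 did. Over all genes 0.747% fell in G2/M cells and 1.17% in S cells.

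Lists around this network are given against the 2.64% of all genes that fell and the 2.79% that rose. Of 11 general pluripotency genes 2 fell and 0 rose. Dppa5a, which encodes an RNA-binding protein of early embryos, had 3565, 3838, 3144 and 3691 CPM on control plates and 2072, 2157, 2281 and 1974 CPM on auxin plates, and no plate of one condition reached the other (log2 fold change -0.79, standard error 0.0738, adjusted p = 0.000115). Zfp281, a zinc finger factor, was the other (log2 fold change -0.49, standard error 0.103, adjusted p = 0.0173). Pou5f1, which encodes OCT4, was low in this table, at a mean of 8.40 and 5.77 CPM, and did not pass (adjusted p = 0.195). Among 13 genes of the formative and primed states 5 fell and 0 rose, with a median of -0.30. Otx2, a homeobox factor of the formative state, had 184, 185, 182 and 191 CPM and then 80.8, 73.4, 148 and 114 CPM. All auxin plates were below all control plates (log2 fold change -0.87, standard error 0.178, adjusted p = 0.0153), as they were for Pou3f1, a POU factor of the same state (log2 fold change -0.90, standard error 0.105, adjusted p = 0.000435). The remaining 3 were Dnmt3a, Dnmt3b and Etv5. Dnmt3a and Dnmt3b, the de novo DNA methyltransferases, fell with their partner Dnmt3l and with the dioxygenase Tet1, which made 4 of 11 genes of DNA methylation and demethylation. Tet1 had the largest change of these (log2 fold change -0.58, standard error 0.0887, adjusted p = 0.00289) and Dnmt3b the smallest (log2 fold change -0.30, standard error 0.0751, adjusted p = 0.0348). Of 13 LIF and STAT3 genes 3 fell and 0 rose. They were Pim1, a kinase gene, Gadd45g, and Socs2, a feedback inhibitor of cytokine receptors, with log2 fold changes of -0.99, -0.66 and -0.57. Of the 8 fits that left out a plate, the call of Pim1 held in 2, that of Gadd45g in 5 and those of Etv5, Dnmt3b and Dnmt3l in 3 each. Junb and Cish, of the same list, did not pass at 1.48 and 1.54. In the FGF and ERK list 2 of 15 fell, Etv5 and the ligand Fgf4. In G2/M cells alone, with fewer cells, 1 of 11 general pluripotency genes, 1 of 12 formative and primed genes, 1 of 11 DNA methylation genes and 1 of 12 LIF genes fell, and 0 of 15 FGF and ERK genes passed by edgeR (3 at a raw p below 0.05). In S cells alone 1 gene of each of these 5 lists fell, and the formative and primed median was -0.0345. The shares over all genes were 0.747% and 1.17%. Fgf4 had 123, 91.8, 61.1 and 72.2 CPM on control plates and between 41.0 and 46.0 CPM on auxin plates (log2 fold change -1.03, standard error 0.186, adjusted p = 0.00810).

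**Figure D2:**
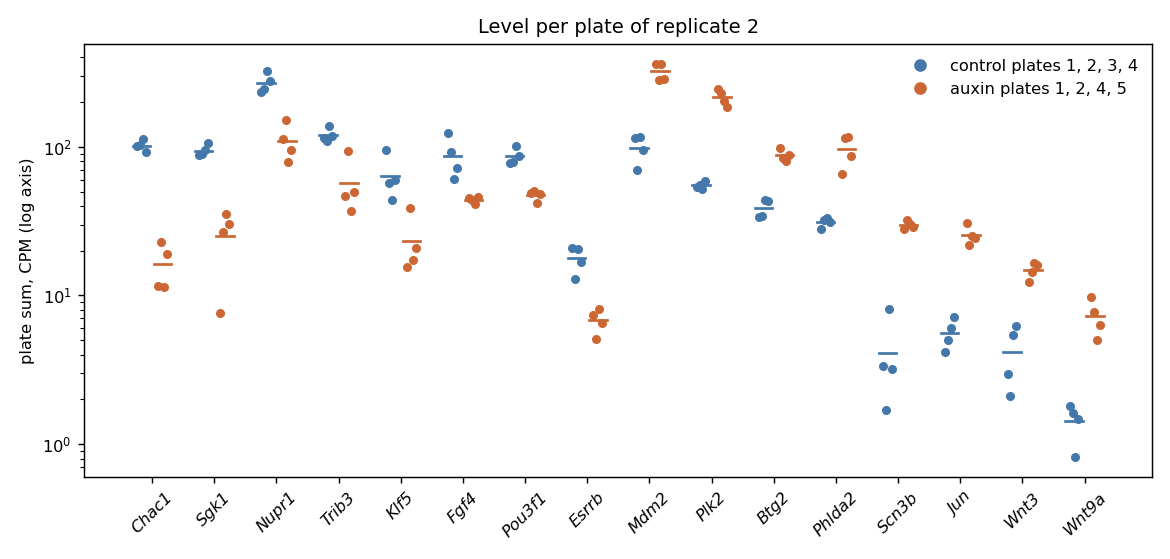
Level of 16 named genes on each plate (vertical axis, CPM of the plate sum, logarithmic), with control plates in blue, auxin plates in orange and the mean of each group as a line. The control points of Chac1 lie at 91.9 to 113 CPM and its auxin points at 11.3 to 22.9 CPM, and the groups of each gene drawn are apart.

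In the integrated stress response 11 of 20 genes tested fell and 0 rose, against 2.64% of all genes that fell, with a median log2 fold change of -0.40 over the 20. The ATF4 protein binds a composite element whose core is TGATGNAA, and 6 of the 12 promoters that the RefSeq table holds for 10 of the 11 genes (build GRCm38.p6, 250 bases before the start and 50 after it) contained that motif on either strand. Over the whole list it was in 7 of 21 promoters (33.3%). It was present in 3.97% of all 32851 promoters of the same length, in 2.50% of the 14635 of tested genes, in 5.21% of 461 promoters of genes that fell and in 0.957% of 418 of genes that rose. Of the 24 promoters with the motif among genes that fell, 6 came from this list. The list gathers genes of a response that ATF4 drives, so its own share is no result of these data. A match is a string in a window and says nothing of binding. The windows of 5 of these are shown because the genes fell together, 5′ to 3′ on the strand of the gene, with the motif or its reverse complement in capitals:
Chac1: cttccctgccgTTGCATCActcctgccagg
Nupr1: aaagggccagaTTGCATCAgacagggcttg
Vldlr: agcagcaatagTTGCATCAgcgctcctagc
Trib3: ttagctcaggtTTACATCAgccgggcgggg
Asns: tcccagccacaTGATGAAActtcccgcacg
The windows lie at chr2:119351038-119351067 (plus strand), chr7:126625562-126625591 (minus), chr19:27216809-27216838 (plus), chr2:152344028-152344057 (minus) and chr6:7693214-7693243 (minus). The capitals of Chac1, Nupr1 and Vldlr are the same 8 bases.

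Chac1 (ENSMUSG00000027313), which encodes an enzyme that degrades glutathione and is a sensitive ATF4 target, had 101, 102, 113 and 91.9 CPM on control plates 1, 2, 3 and 4 and 11.6, 22.9, 11.3 and 18.9 CPM on auxin plates 1, 2, 4 and 5. The lowest control plate was 4 times as high as the highest auxin plate (log2 fold change -2.69, standard error 0.197, adjusted p = 1.36e-05), and the fall passed in G2/M cells alone (-2.23, adjusted p = 0.00317). In those cells 6 of the 20 genes fell, against 0.747% of all genes, and Nupr1 (-1.32, adjusted p = 0.0790) and Trib3 (-1.09, adjusted p = 0.116) did not pass. In S cells alone 6 of the 20 fell, against 1.17% of all genes. There Nupr1 (-2.21, adjusted p = 0.000245) and Trib3 (-1.58, adjusted p = 0.00790) passed, and Vldlr did not (-1.40, adjusted p = 0.296). Nupr1, a stress-induced chromatin protein, had 232, 244, 321 and 275 CPM and 113, 152, 79.0 and 94.5 CPM. All its auxin plates were lower (log2 fold change -1.32, standard error 0.162, adjusted p = 0.000638). Trib3, a pseudokinase that feeds back on ATF4, had 114, 109, 137 and 117 CPM and 46.8, 93.5, 36.7 and 49.8 CPM, with auxin plate 2 nearest to the controls (log2 fold change -1.11, standard error 0.216, adjusted p = 0.0116). Vldlr, a lipoprotein receptor, had 14.1, 12.4, 21.5 and 15.8 CPM and 4.82, 7.07, 4.57 and 1.99 CPM (log2 fold change -1.82, standard error 0.318, adjusted p = 0.00641). Atf4 itself fell by 0.84 (adjusted p = 0.000556), from a mean of 498 to 286 CPM. The remaining 6, like Atf4 named after their values were seen, were the amino acid transporter genes Slc7a5 and Slc3a2, the folate enzyme gene Mthfd2, asparagine synthetase Asns, the alanyl-tRNA synthetase gene Aars and the serine synthesis gene Psat1, with log2 fold changes from -1.05 to -0.28. Ddit3, which encodes CHOP, did not pass at -0.40, nor did Atf5 and Cebpb at 0.19 and 0.29.

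Of 18 p53 targets tested, 10 rose and 0 fell, against 2.79% of all genes that rose, and the median log2 fold change was 0.77. Mdm2 (ENSMUSG00000020184), the ubiquitin ligase that p53 induces and that degrades it, had 114, 69.8, 116 and 94.8 CPM on control plates 1, 2, 3 and 4 and 362, 283, 362 and 287 CPM on auxin plates 1, 2, 4 and 5. The groups were far apart (log2 fold change 1.68, standard error 0.141, adjusted p = 4.38e-05). Plk2, a polo-like kinase, had 53.8, 55.1, 52.4 and 58.5 CPM and 246, 232, 204 and 185 CPM, and the control plates lay close together (log2 fold change 1.94, standard error 0.101, adjusted p = 1.19e-06). Trp53inp1, a p53 cofactor, had 25.7, 31.8, 47.9 and 40.1 CPM and 88.1, 77.3, 93.5 and 81.6 CPM (log2 fold change 1.20, standard error 0.159, adjusted p = 0.00115). Btg2, an antiproliferative gene, had 33.8, 34.3, 43.6 and 43.4 CPM and 97.8, 83.8, 80.2 and 88.6 CPM (log2 fold change 1.14, standard error 0.115, adjusted p = 0.000145). Fas, the death receptor gene, had 48 UMIs in all control cells and 370 in all auxin cells, and control plate 2 had none (log2 fold change 2.85, adjusted p = 0.0277). Its call held in 3 of 8 fits that left out a plate. The other 5, named after their values were seen, were Perp, Phlda3, the cyclin gene Ccng1, the BH3-only gene Pmaip1 and the cell cycle inhibitor Cdkn1a. Cdkn1a had 171, 169, 209 and 173 CPM on control and 387, 306, 312 and 304 CPM on auxin plates (log2 fold change 0.83, standard error 0.0927, adjusted p = 0.000319). Trp53 itself had a mean of 639 and 634 CPM (log2 fold change -0.05, adjusted p = 0.736). Bax, Gdf15, Zmat3 and Bbc3 did not pass, with values of -0.25, -0.39, 0.09 and 0.17. In G2/M cells alone 7 of 18 rose (0.547% of all genes) and 0 fell, with a median of 0.59, and in S cells 5 of 17 rose (0.986% of all genes), with a median of 0.60. Mdm2 rose in both (1.09 and 1.88).

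**Figure D3:**
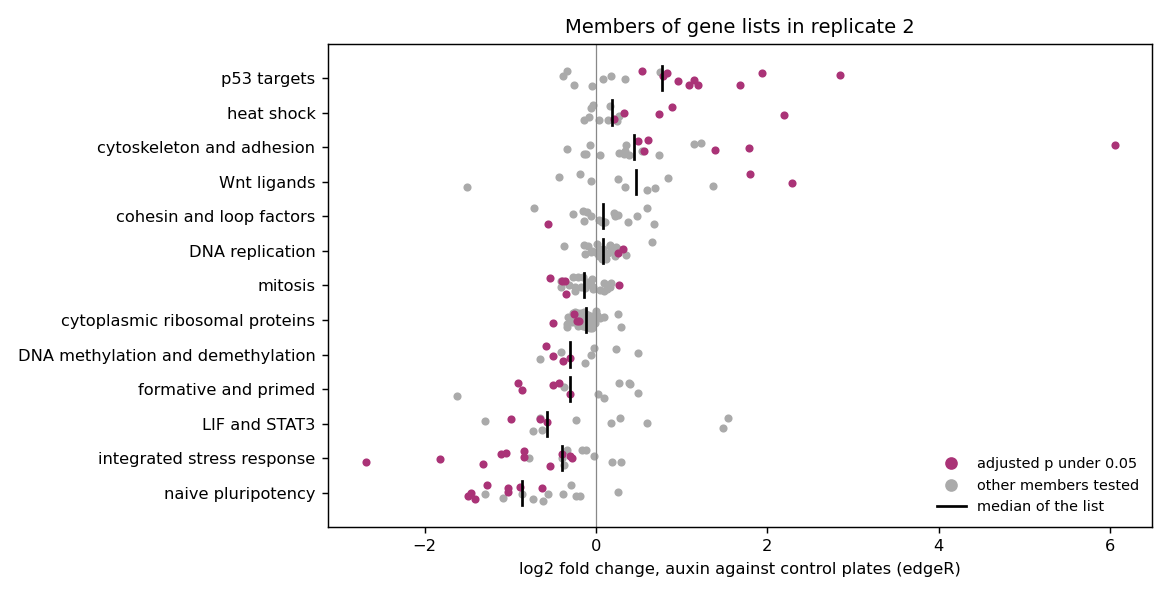
Log2 fold change between auxin and control plates (horizontal axis) of every tested member of 13 gene lists, in purple where the adjusted p was under 0.05 and grey otherwise, with the median of each list as a black line. Points are offset vertically for legibility. All called p53 targets lie to the right of 0 and all called members of the integrated stress response and naive pluripotency lists to the left, and Krt19 is the point at 6.06, a fitted value that depends on the prior count since its control plates held 2 UMIs.

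Of 12 Wnt ligand genes tested 2 rose and 0 fell, and both were low (2.79% of all genes rose and 2.64% fell). Wnt3 (ENSMUSG00000000125, chromosome 11 from 103774150 to 103817957), which encodes a ligand of the canonical pathway, had 2.95, 2.11, 5.38 and 6.20 CPM on control plates 1, 2, 3 and 4 and 12.3, 14.4, 16.5 and 16.1 CPM on auxin plates 1, 2, 4 and 5. Every auxin plate was above every control plate (log2 fold change 1.80, standard error 0.301, adjusted p = 0.00495). Wnt9a (ENSMUSG00000000126, chromosome 11 from 59306928 to 59333552) had 1.80, 1.62, 0.816 and 1.47 CPM and 9.81, 7.78, 4.98 and 6.34 CPM, again with no overlap (log2 fold change 2.29, standard error 0.358, adjusted p = 0.00336). These values rest on 204 and 749 UMIs of Wnt3 and on 70 and 363 UMIs of Wnt9a in all control and auxin cells. Neither passed in G2/M cells alone (Wnt3 1.14, adjusted p = 0.287, and Wnt9a 1.69, adjusted p = 0.216), where 1 of 10 ligand genes was called lower (0.747% of all genes), Wnt16, with 124 UMIs in control and 1 in auxin G2/M cells. Over all cells Wnt16 did not pass (log2 fold change -1.50, adjusted p = 0.363). In S cells alone 5 ligand genes could be tested and 0 passed by edgeR, with a median of 2.23 (2.15% of all genes passed). Downstream, 1 of 21 Wnt targets and inhibitors rose and 1 fell, and both encode secreted inhibitors of Wnt. Sfrp2 rose (log2 fold change 0.86, standard error 0.218, adjusted p = 0.0381) and Sfrp1 fell (log2 fold change -0.80, standard error 0.194, adjusted p = 0.0318). These calls held in 1 and 3 of the 8 fits that left out a plate, and neither gene passed in G2/M or S cells alone. Axin2 and Nkd1, classical feedback targets, did not pass at 0.82 and 0.97. Of 20 genes of Wnt receptors and secretion 0 were called by edgeR, with 1 at a raw p below 0.05, and DESeq2 called 1 (10.9% of all genes).

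Among genes that reached 10 CPM, those with the highest log2 fold changes came from several groups, whose counts are read against the 2.79% of all genes that rose and the 2.64% that fell. Scn3b, a sodium channel subunit gene, had 3.36, 1.70, 8.16 and 3.18 CPM on control plates and 28.0, 32.1, 30.1 and 29.0 CPM on auxin plates, which lay close together and far above (log2 fold change 2.84, standard error 0.334, adjusted p = 0.000483). Car3, a carbonic anhydrase gene, had 4.84, 4.87, 6.93 and 4.97 and then 19.2, 50.1, 27.5 and 20.3 CPM (log2 fold change 2.40, standard error 0.295, adjusted p = 0.000653). Jun, the AP-1 subunit, had 4.18, 5.03, 6.04 and 7.17 CPM and 30.9, 21.9, 25.2 and 24.2 CPM, with no overlap (log2 fold change 2.15, standard error 0.205, adjusted p = 0.000115). With Btg2 it made 2 of 16 immediate early genes (0 of 15 by edgeR in G2/M cells, with 2 at a raw p below 0.05, and 1 of 13 in S cells), and Fos, Egr1 and Myc did not pass at -0.16, -0.32 and -0.44. Rasl11a, Cyyr1, Plek2, Fgfbp1, Slc35e4, Unc45b and the histone gene Hist1h2bc rose by 1.70 to 2.35. Of 20 cytoskeleton and adhesion genes 6 rose and 0 fell, with a median of 0.44. In G2/M cells alone 1 of 18 rose, and in S cells alone 3 of 18 did, with medians of 0.40 and 0.20 (0.547% and 0.986% of all genes rose there). Krt19, a keratin, had 2 UMIs in all control cells and 175 in all auxin cells, with 3.08, 6.27, 1.31 and 3.17 CPM on the auxin plates (adjusted p = 0.00218). Krt8, the other called keratin, had 2.79, 1.14, 3.75 and 2.53 CPM and 13.7, 13.4, 4.08 and 4.94 CPM, so that 2 auxin plates stood clearly above and 2 just above the controls (log2 fold change 1.79, standard error 0.453, adjusted p = 0.0376). Its call held in 2 of 8 fits that left out a plate. Cyr61, Vim, Tpm4 and Tagln2 rose by 1.39, 0.61, 0.56 and 0.50, and the actin genes Actb and Actg1 had values of -0.07 and 0.05 without passing. Of 14 heat shock genes 5 rose and 0 fell, and 3 of 14 rose in G2/M and in S cells alone. Hspa5, the chaperone of the endoplasmic reticulum, had 487, 517, 463 and 515 CPM and 859, 968, 737 and 830 CPM (log2 fold change 0.74, standard error 0.0797, adjusted p = 0.000231). Dnajb1, a co-chaperone, had 58.5, 59.0, 56.2 and 52.6 CPM and 97.1, 116, 109 and 107 CPM (log2 fold change 0.89, standard error 0.0937, adjusted p = 0.000202). Hspa1a rose by 2.20 from about 1 CPM, and reads may be split with its near-identical copy. Among 18 imprinted genes Phlda2 and Cdkn1c rose and Peg3, Meg3 and Kcnq1ot1 fell, and the calls of Cdkn1c and Peg3 held in 2 and 1 of the 8 fits that left out a plate. Of 17 imprinted genes tested in G2/M cells 1 rose and 1 fell, and in S cells 2 of 14 rose and 3 fell. Phlda2 had 28.0, 32.3, 33.3 and 31.0 CPM and 65.8, 115, 116 and 86.7 CPM (log2 fold change 1.59, standard error 0.165, adjusted p = 0.000174).

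Among the genes with the lowest log2 fold changes, several rested on row D. Adra1b, which encodes an adrenergic receptor, had 373, 339, 758 and 1382 CPM on control plates and 6.23, 10.5, 6.20 and 7.96 CPM on auxin plates (log2 fold change -6.55, adjusted p = 8.76e-06). Of its 34980 control UMIs 82.6% came from row D, against 8.18% of 391 auxin UMIs. F2r, the thrombin receptor gene, had 2016, 1512, 524 and 708 CPM and 70.7, 91.8, 77.5 and 92.2 CPM (log2 fold change -3.89), with 73.5% of the control UMIs in row D. Rap1gap had 75.8%, Nrg3 68.0%, Zfp1 66.0% and Vmn2r71 63.8% of their control UMIs there, with log2 fold changes over all wells of -4.15, -2.31, -2.14 and -2.28. In 11 called genes, named by this share and including 5 others that the naming rule leaves out, row D held 52.4% to 82.6% of the control UMIs, and the 5 highest cells of a control plate held 31.7% to 82.8% of its UMIs. Without row D the log2 fold change was -4.19 (adjusted p = 0.000301) for Adra1b, -2.14 (adjusted p = 0.000363) for F2r, -2.19 (adjusted p = 0.00666) for Rap1gap and -0.74 (adjusted p = 0.0195) for Nrg3. Zfp1 and Vmn2r71 no longer passed, at -0.65 (adjusted p = 0.0629) and -0.93 (adjusted p = 0.0732). The wells of this row differ from the rest in depth and in these genes at once, and their part in the remaining difference was not tested. In control sums of replicate 1, where row D was not shallow, Adra1b and Nrg3 had 1 UMI each and Vmn2r71 had 0. F2r, Rap1gap and Zfp1 had 6.99, 4.44 and 27.7 CPM there. In control sums of replicate 3 Adra1b, Nrg3 and Vmn2r71 had 18.8, 27.04 and 4.95 CPM. F2r, Rap1gap and Zfp1 had 206, 51.1 and 27.04 CPM in those.

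**Figure D4:**
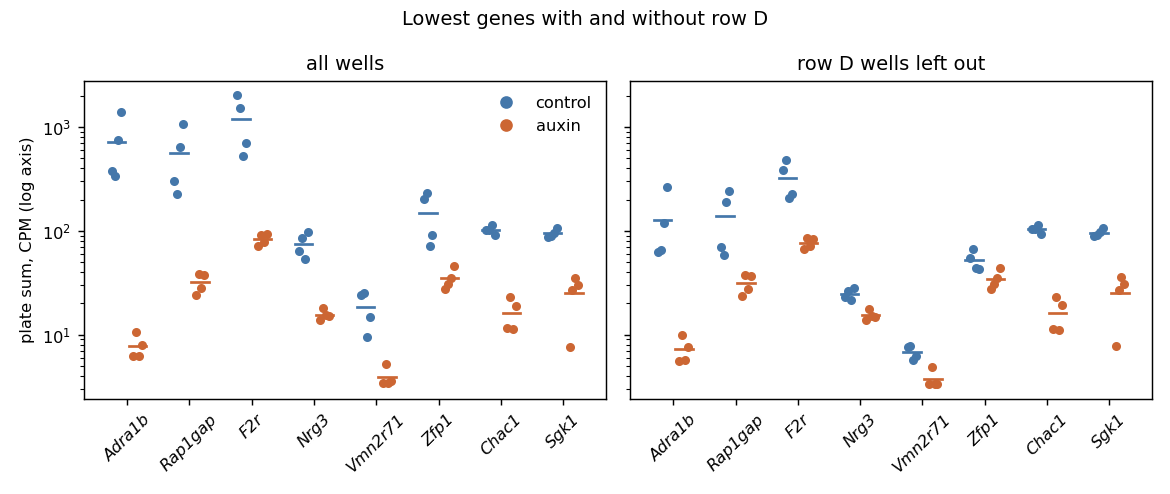
Level of 8 of the lowest genes on each plate (vertical axis, CPM of the plate sum, logarithmic), with all wells on the left and without row D on the right. Blue points are control plates, orange points auxin plates and lines group means. Chac1 and Sgk1 keep their control level of about 100 CPM on the right, while Adra1b drops from 339 to 1382 CPM on the control plates to 62.4 to 266 CPM.

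Other low genes had few of their UMIs in that row. Sgk1, a kinase gene induced by serum and growth factors, had 87.5, 89.4, 94.9 and 106 CPM on control plates and 7.65, 26.7, 35.3 and 30.3 CPM on auxin plates, with auxin plate 1 the lowest (log2 fold change -1.95, standard error 0.311, adjusted p = 0.00400). Row D held 1.71% of its control UMIs. Egln3, an oxygen-sensing prolyl hydroxylase gene, had 27.1, 30.7, 19.004 and 25.6 CPM and 10.6, 10.3, 4.98 and 3.98 CPM (log2 fold change -1.82, standard error 0.301, adjusted p = 0.00472). It did not pass in G2/M cells alone (-2.01, adjusted p = 0.0957) or in S cells alone (-1.39, adjusted p = 0.238). Fst, which encodes the activin inhibitor follistatin, and Hhip, which encodes a Hedgehog inhibitor, fell by 2.32 and 1.75 (adjusted p = 0.00810 and 0.0127). Fst did not pass in G2/M or S cells alone (adjusted p = 0.154 and 0.132), and its 5 highest cells held 60.9% to 76.5% of its UMIs on a control plate and 96.8% to 100% on an auxin plate. Hhip passed in G2/M cells (-2.33, adjusted p = 0.00992) and not in S cells (-0.40, adjusted p = 0.863). Eomes, a T-box factor, had 85 UMIs in all control cells and 3 in all auxin cells (adjusted p = 0.00540). The 5 highest cells held 96.9% to 100% of its UMIs on a control plate, its plate shares of detecting cells overlapped, and DESeq2 gave it no adjusted p. In glycolysis 2 of 20 genes fell, against 2.64% of all genes (1 of 20 in G2/M and 1 of 20 in S cells alone), the phosphofructokinase gene Pfkp (log2 fold change -0.96, standard error 0.128, adjusted p = 0.00117) and the glucose transporter gene Slc2a1 (log2 fold change -0.68, standard error 0.139, adjusted p = 0.0149). Above 100 CPM, where many of the 20 lay, 170 of 2236 genes fell.

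Lists tied to the cell cycle, to cohesin and to ribosomes moved by small amounts, and their counts are read against the 2.64% of all genes that fell and the 2.79% that rose. Of 26 mitosis genes 4 fell and 1 rose, with a median of -0.14. Top2a, a topoisomerase of dividing cells, had 1355, 1007, 1178 and 1097 CPM and 899, 901, 924 and 995 CPM (log2 fold change -0.35, standard error 0.0756, adjusted p = 0.0186), and its value was 0.025 in G2/M cells alone, where 0 of the 26 passed by edgeR, with 2 at a raw p below 0.05 (1.29% of all genes passed). In S cells Top2a fell (-0.52, adjusted p = 0.0138), and 2 of the 26 genes rose and 2 fell, against 0.986% and 1.17% of all genes. Over all cells Prc1, Cenpf and Kif11 were the other falling genes and Cdc20 the rising one. The calls of Prc1, Cenpf and Kif11 held in 2, 5 and 1 of the 8 fits that left out a plate, and Prc1 did not pass without row D (adjusted p = 0.0527). Of 26 replication genes 2 rose, Rrm2 (log2 fold change 0.31, standard error 0.0641, adjusted p = 0.0147) and Ccne1 (log2 fold change 0.26, standard error 0.0688, adjusted p = 0.0445), and 0 fell. The call of Ccne1 held in 0 of the 8 fits that left out a plate, and it did not pass without row D (adjusted p = 0.0559). Of these 26, 0 passed by edgeR in G2/M cells (2 at a raw p below 0.05) and in S cells 1 rose. Of 18 genes of cohesin, its loaders and loop factors 1 fell and 0 rose. That gene was Pds5a, a regulator bound to the ring, with 54.6, 47.0, 57.2 and 49.4 CPM and 36.6, 35.7, 27.3 and 44.7 CPM (log2 fold change -0.56, standard error 0.142, adjusted p = 0.0380), and its call held in 1 of 8 fits that left out a plate. Ctcf, the factor that stops loop extrusion, had a log2 fold change of 0.48 without passing, and Smc3 0.08. Of 79 cytoplasmic ribosomal protein genes 4 fell and 0 rose, with a median of -0.12. Many of the 79 lay above 100 CPM, where 170 of 2236 genes fell. Of 16 mitochondrially encoded genes 3 fell, mt-Rnr1, mt-Rnr2 and mt-Cytb. Jarid2 was the 1 Polycomb gene of 18 that fell, with its call held in 3 of 8 such fits. In the lists of aryl hydrocarbon receptor targets (7 tested), BMP targets (9) and metallothioneins (5) edgeR called 0 genes, with 2, 1 and 1 at a raw p below 0.05. DESeq2 called 0, 0 and 1.

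Single cells were compared by the share with at least 1 UMI of a gene, after thinning every cell to 20000 UMIs. Thinning left out 21 cells, 8 control and 13 auxin. Of the 86 named genes, 53 had shares that did not overlap between control and auxin plates (exact two-sided permutation test, p = 0.0286, and 0.0464 after adjustment over 86 genes). Over all genes tested 3.89% had higher and 4.55% lower shares on every auxin plate. Since these shares come from the counts that chose the genes, they describe the same change and are no second test. The plates held cells of 1 line, so that no cells lacking a gene gave a background share. Klf5 was detected in between 26.1% and 44.1% of the cells of a control plate and between 10.1% and 23.5% of an auxin plate, and the mean count among detecting cells was 3.83 and 3.15 UMIs. Chac1 was detected in between 45.1% and 52.2% of control and between 7.04% and 19.1% of auxin cells. Its mean count among detecting cells was 3.70 and 2.57 UMIs. Mdm2 was detected in between 51.7% and 67.0% of control and between 73.9% and 79.4% of auxin cells, while the mean count among detecting cells rose from 3.69 to 9.06 UMIs. The share for Plk2 was between 31.2% and 36.8% in control and between 63.8% and 75.0% in auxin cells, and its mean count among detecting cells went from 3.55 to 6.42 UMIs. Wnt3 was detected in between 2.30% and 12.1% of control and between 12.7% and 15.9% of auxin cells, and Wnt9a in between 1.09% and 4.40% and between 8.70% and 11.3%. Without thinning the mean shares were 11.9% and 22.7% for Wnt3, 7.26% and 21.7% for Wnt9a, 46.3% and 24.2% for Klf5 and 81.4% and 89.0% for Mdm2. A share cannot pass 100% and a mean count among detecting cells cannot fall below 1, so that the 2 measures of a gene are not on 1 scale. For 15 of the 86 named genes, Wnt3, Wnt9a, Jun, Scn3b, Car3, Krt8, Cyr61, Plek2, Fgfbp1, Hist1h2bc, Hspa1a, Unc45b, Fst, Hhip and Prdm14, the 5 highest cells held over 50% of the UMIs on every plate. Adra1b was detected in between 72.4% and 97.8% of control and between 14.5% and 17.6% of auxin cells at that depth. The mean count among its detecting cells was 49.7 and 1.46 UMIs, and the 5 highest cells held 72.5% to 80.0% of its UMIs on a control plate. Without row D the mean share was 80.0% in control and 13.9% in auxin cells and the mean count 3.84 and 1.39 UMIs.

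The other replicates, with 4 plates and 2 plates of settled condition, held samples that this comparison did not use. In replicate 1 edgeR called 0 of 13583 genes between its 2 control and 2 auxin plates, where 713 had a raw p below 0.05. Among genes called lower in replicate 2 with at least 20 UMIs in the other replicate, 199 of 360 were lower in replicate 1 (55.3%, against 44.8% of all genes) and 291 of 422 in replicate 3 (69.0%, against 54.1%). Of those called higher, 226 of 420 were higher in replicate 1 (53.8%, against 55.2%) and 228 of 412 in replicate 3 (55.3%, against 45.9%). Klf5 was lower with auxin in each replicate and higher in level outside replicate 2, at 303 CPM in control and 153 CPM in auxin sums of replicate 1, and 304 and 127 CPM in those of replicate 3. The difference of its log2 fold change between replicate 2 and the other replicates was -0.41 (adjusted p = 0.775). Mdm2 had 91.6 CPM in control and 119 CPM in auxin sums of replicate 1, and 103 and 106 CPM in those of replicate 3, and Plk2 had 46.7 CPM in control and 30.7 CPM in auxin sums of replicate 1, and 31.5 and 47.0 CPM in those of replicate 3. Both differed from replicate 2 by the test of the difference between replicates over plates, by 1.43 (adjusted p = 0.00660) and 2.17 (adjusted p = 0.000899), in which 86 of 15640 genes passed (0.55%). Of the 18 p53 targets 7 passed that test, all with the larger value in replicate 2, and the median log2 ratio of the list was 0.04 in replicate 1 and -0.01 in replicate 3. Chac1 was near the floor elsewhere, at 0.943 CPM in control and 1.56 CPM in auxin sums of replicate 1, and 3.96 and 1.35 CPM in those of replicate 3. Nupr1 was higher in the auxin sums, with 31.5 CPM in control and 55.0 CPM in auxin sums of replicate 1, and 93.7 and 139 CPM in those of replicate 3, and the difference was -2.02 (adjusted p = 0.000899). The integrated stress response list was higher in 15 of 20 genes in replicate 1 and in 12 of 19 in replicate 3. Of the naive pluripotency list 12 of 19 genes were lower in each of these replicates, with medians of -0.08 and -0.26, and 0 of 19 passed edgeR's test of the difference, with 7 at a raw p below 0.05. The order of the G2/M shares was also the reverse of that in replicate 2, as given with the phases, and mitosis genes were higher with auxin in 24 of 26 cases in replicate 1 and in 26 of 26 in replicate 3. Wnt3 and Wnt9a were near the floor in both, with 0.666 CPM in control and 0.0520 CPM in auxin sums of replicate 1, and 0.165 and 0.598 CPM in those of replicate 3 for Wnt3 and at most 2.54 CPM for Wnt9a.

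**Figure D5:**
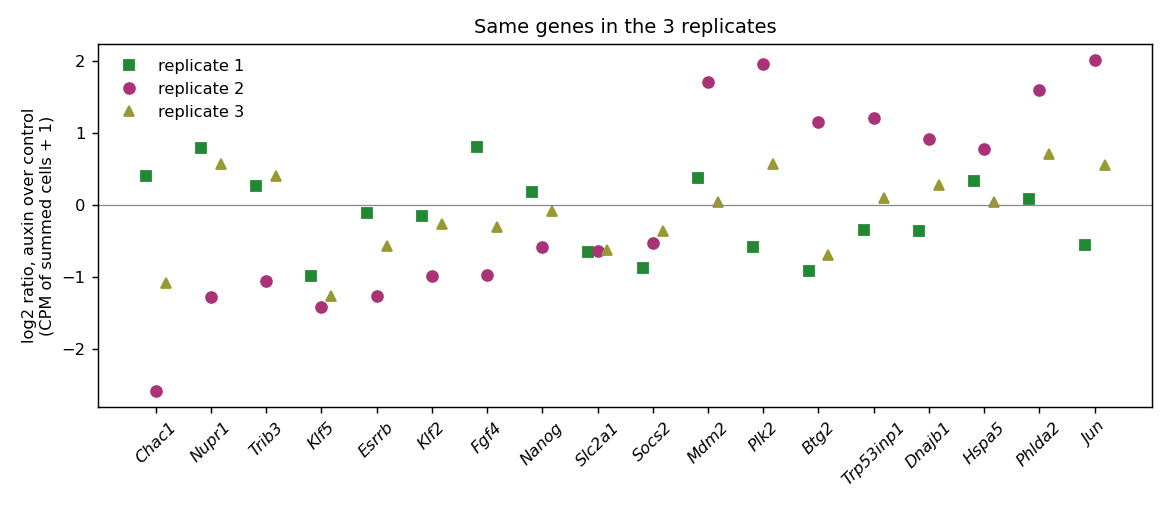
Log2 ratio of auxin to control in each replicate (vertical axis, CPM of the summed cells plus 1) for 18 named genes, with squares for replicate 1, circles for replicate 2 and triangles for replicate 3. Each point is 1 sum per condition, with no error. Klf5, Esrrb, Klf2, Slc2a1 and Socs2 lie below 0 in all 3 replicates, and the p53 targets Mdm2, Plk2, Btg2 and Trp53inp1 lie above 1 in replicate 2 and below 1 in the others.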

How the data were processed

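Single cells of 3 replicates were profiled by Smart-SCRB. The deposited tables hold raw UMI counts per gene and well, which the authors made from mm10 (from the submitters' processing notes), with the aligner and counter not given in the sources used here. The authors' well annotation also gives the percent of ERCC UMIs and a fraction for the saturation of each plate. The counts were 1 per molecule, and sequencing depth limits precision as given with each result.

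Wells with more than 2600 detected genes were kept, and condition was read from the well annotation. UMIs of mouse genes were summed per plate, with ERCC and transgene rows left out (ERCC rows held 3.06% of UMIs). Sums were filtered by filterByExpr, scaled by TMM and compared by edgeR's quasi-likelihood test (edgeR 4.0.16, R 4.3.3) with Benjamini-Hochberg adjustment at 0.05. Plate shares were compared by exact two-sided permutation tests. Phases were called by cyclone (scran 1.30.0). For detection shares cells were thinned to 20000 UMIs. The scripts were tested on simulated data.

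Members, lists and tests were chosen with earlier results of these data known. Named genes were Klf5, Wnt3, Wnt9a and Rad21, up to 12 genes with the highest and up to 12 with the lowest log2 fold change among called genes of at least 10 CPM whose plates did not overlap, leaving out predicted gene models, and up to 4 called members of each list. Any other gene was named after its values were seen. Alternatives were DESeq2 1.42.0, library size scaling, no filter, a minimum of 4000 genes, thinning, a limit of 250000 UMIs, single phases, a phase covariate, leaving out each plate and fits over all replicates with a replicate block. Leaving out row D, also for the difference between replicates, was chosen after seeing the data. In replicate 3, 2 plates whose condition was in doubt were left out. In auxin plate 1, 1 well is annotated with the name of another plate. The window of 1 further promoter is not reported here.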

Additional observations from a re-analysis of the deposited data

Results flagged for a closer look

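Single plates stood apart from the other 3 of their group in 12 of 178 groups of 4 plates, and chance alone gives about 1 in 20. On control plates, Prdm14 was high on plate 1 (9.43 CPM), as were Nes (30.0 CPM) and Nanog (61.6 CPM). Dnmt3b was high on control plate 4 (656 CPM), Car3 on control plate 3 (6.93 CPM) and Krt19 on control plate 3 (0.163 CPM, where the other control plates had 0), and Fgfbp1 was low on control plate 4 (7.34 CPM). On auxin plates, Vmn2r71 was high on plate 2 (5.16 CPM), Cdkn1c on plate 2 (28.1 CPM) and Plek2 on plate 4 (16.2 CPM), and Gadd45g was low on plate 1 (67.4 CPM). The share of S cells was low on auxin plate 5 (28.2%).

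For 17 named genes the log2 fold change of replicate 2 differed from that of replicates 1 and 3 by the edgeR test of the difference. It was larger in replicate 2 by 2.02 for Btg2, 1.43 for Trp53inp1, 1.43 for Mdm2, 2.17 for Plk2, 2.47 for Jun, 1.05 for Dnajb1, 3.96 for Scn3b, 8.88 for Krt19 and 3.06 for Hist1h2bc. The value of Krt19 rests on very few control UMIs and depends on the prior count. Without row D in any replicate it was 7.43. The difference was -0.64 for Cenpf, -2.02 for Nupr1, -0.74 for Dppa5a and -0.94 for Pfkp. It was -4.50 for Rap1gap, -2.20 for Zfp1, -5.75 for Adra1b and -3.08 for F2r, genes with most of their control UMIs in row D of replicate 2. Without row D in any replicate, chosen after seeing the data, these 4 differences were -2.69, -0.64, -3.30 and -1.40, and none passed (adjusted p = 0.0731, 0.410, 0.124 and 0.183). Jun (2.21, adjusted p = 0.0672) and Pfkp (-0.91, adjusted p = 0.0645) no longer passed either. Fgfbp1 passed without row D (2.98, adjusted p = 0.0444) and not with it (2.75, adjusted p = 0.0568). Depth, the share of G2/M cells and the control levels of some genes differ between the replicates. Their part in these differences was not tested. Chac1 had a mean of 102 CPM on control plates of replicate 2 and 0.943 and 3.96 CPM in control sums of replicates 1 and 3. In the same order Nupr1 had 268, 31.5 and 93.7 CPM and Nanog 58.6, 496 and 525 CPM.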

How the results depend on the processing

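Against 888 genes called, DESeq2 called 1608, cells thinned to 20000 UMIs 492, cells up to 250000 UMIs 491, G2/M cells 187, S cells 275 and the fit with the G2/M share as covariate 0. Leaving out 1 plate gave 469 to 671. Of 86 named genes 85 were called, and 54 with thinned cells, 30 in G2/M cells, 40 in S cells and 0 with the covariate. Of the list members 84 were called, and 30 in G2/M cells, 45 in S cells, 0 with the covariate and 53 to 76 without 1 plate. Detection shares were apart for 53 named genes and for 25 in G2/M cells alone. Labels pair replicates and not plates, so a replicate block was fitted over all 3 replicates. With the replicate block on plates 235 genes, 26 named genes and 27 list members were called, and with the replicate block on sums 3, 1 and 2. Leaving out row D, chosen after seeing the data, gave 796. DESeq2 gave no adjusted p for Eomes. Fewer cells or plates entered most of these fits, and the cause of other changes was not tested.

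Over single genes 1146 values kept their direction and call, 539 lost the call and 20 reversed. With the replicate block on sums the log2 fold change was -0.15 for Btg2, 0.064 for Cenpf, -0.035 for Ccne1, 0.0032 for Nupr1, 0.0028 for Rps15, 0.078 for Top2a, -0.12 for Krt19, -0.15 for Hist1h2bc and 0.044 for Kif11. With the covariate it was 0.43 for Nr5a2, -0.13 for Nes, 0.83 for Sgk1, 0.042 for Jarid2, 0.30 for Gadd45g, 0.53 for Fst, -0.57 for Rad21 and -0.095 for Cyyr1. In G2/M cells it was 0.025 for Top2a. Rad21 had -0.35 with thinned cells and between -0.027 and 0.18 without 1 plate. The causes of these reversals were not tested.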

Other observations

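The nearest tested gene that did not overlap was itself called for 24 of 449 genes called higher (5.35%), 33 of 427 called lower (7.73%) and 815 of 15133 genes not called (5.39%). Of the 33 neighbours of lower genes, 25 were lower too, and of the 24 neighbours of higher genes 15 were higher too. Among called genes at 1 to 10 CPM 78 were higher and 34 lower, and above 100 CPM 124 were higher and 170 lower. Of 707 processed pseudogenes 0 were called higher and 5 lower (0.707%), against 2.79% and 2.64% of all genes.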
